A study of Rattus norvegicus with 6 samples.

Results

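Small leucine-rich proteoglycans were followed in chondrocytes of the rat mandibular condyle, the cartilage-covered head of the jaw joint, across 3 libraries of 2D culture and 3 libraries of condylar organoid. The family was taken as 10 named genes (Dcn, Bgn, Aspn, Fmod, Lum, Prelp, Omd, Kera, Epyc and Ogn), and all 10 were found by symbol among the 17954 genes of the deposited tables. The 2D cells were grown in DMEM with 20% fetal bovine serum and antibiotics. The organoids, small pieces of tissue made in culture, were kept in a chondrogenic medium. Culture format and medium, with any difference in serum, therefore changed together and cannot be told apart. The sources used here do not give strain, age, number of animals, passage or time in culture. Whether replicate libraries stem from separate animals or cultures is not stated either, and the p-values therefore measure only the spread between these libraries, which may be technical.

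These proteins are secreted into the matrix, where a curved core of leucine-rich repeats binds collagen fibrils and helps to set their diameter and spacing. They also bind growth factors and cell surface receptors. Class I holds decorin (Dcn) and biglycan (Bgn), which carry chondroitin or dermatan sulfate chains, and asporin (Aspn), which usually carries none. Class II holds fibromodulin (Fmod), lumican (Lum), keratocan (Kera), osteoadherin (Omd) and PRELP (Prelp), several of which carry keratan sulfate, and class III holds epiphycan (Epyc), found in growth cartilage, and osteoglycin (Ogn, also called mimecan).

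Nearly all of the family sits in gene clusters, which the choice of members did not use. In the RefSeq gene table of assembly GRCr8, Dcn, Lum, Kera and Epyc follow each other on chromosome 7, Prelp and Fmod lie side by side on chromosome 13, and Ogn, Omd and Aspn follow each other on chromosome 17, with 0 other protein-coding genes starting between neighbours. Bgn stands alone on chromosome X. Cenpp, a centromere protein gene, spans Ogn, Omd and Aspn in that table. Cenpp had 202, 199 and 187 counts in the 2D cultures, against 21, 5 and 0 counts in the organoids. The sources used here do not say whether counting used strand, so reads of these overlapping genes may not be fully separated, which matters most for Omd, whose counts were of the same order.

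The 250 bases before the annotated start are shown for 4 genes whose levels moved in opposite directions, as described further on: Lum and Epyc of the chromosome 7 cluster, higher in organoids, and Ogn and Aspn of the chromosome 17 cluster, lower. The sequences come from RefSeq (GRCr8), which gave such a window for 7 of the 10 genes. The windows are chr7:34245456-34245705 (plus strand) for Lum, chr7:34323082-34323331 (plus strand) for Epyc, chr17:15258996-15259245 (minus strand) for Ogn and chr17:15310470-15310719 (minus strand) for Aspn. Each is written 5′ to 3′ and capitals mark matches, on either strand, to any of 7 short motifs. They were TATAAA, which positions the start of transcription, CCAAT, bound by nuclear factor Y, TGANTCA for the AP-1 factors, ACGTG as the core of the hypoxia element, ACAAAG for the SOX factors, TGTGGT for the RUNX factors and GGAATG for the TEAD factors.
Lum: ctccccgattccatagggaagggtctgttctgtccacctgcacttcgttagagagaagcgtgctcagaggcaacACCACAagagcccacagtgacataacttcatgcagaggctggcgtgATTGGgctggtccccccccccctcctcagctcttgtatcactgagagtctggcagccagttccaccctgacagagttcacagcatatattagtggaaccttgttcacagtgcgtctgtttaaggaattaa
Epyc: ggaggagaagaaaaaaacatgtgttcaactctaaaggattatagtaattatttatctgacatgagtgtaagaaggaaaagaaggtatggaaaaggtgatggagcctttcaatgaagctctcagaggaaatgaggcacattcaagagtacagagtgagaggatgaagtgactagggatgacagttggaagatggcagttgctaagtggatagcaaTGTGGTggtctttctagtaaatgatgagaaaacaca
Ogn: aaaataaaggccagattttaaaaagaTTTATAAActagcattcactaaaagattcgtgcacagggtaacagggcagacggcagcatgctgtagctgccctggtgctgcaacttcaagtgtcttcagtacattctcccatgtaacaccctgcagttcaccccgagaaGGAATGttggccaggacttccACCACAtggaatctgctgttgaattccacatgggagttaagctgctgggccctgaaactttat
Aspn: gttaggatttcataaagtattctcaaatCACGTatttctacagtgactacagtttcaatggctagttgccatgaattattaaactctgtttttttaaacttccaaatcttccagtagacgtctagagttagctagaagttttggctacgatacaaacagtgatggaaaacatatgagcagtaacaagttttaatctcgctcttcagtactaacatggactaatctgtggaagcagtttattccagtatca
The RUNX motif was present in Lum, Epyc and Ogn, and in 14.5% of all 33469 RefSeq windows of this length. Ogn also held overlapping matches to TATAAA, on both strands, 224 and 222 bases before the start (12.9% of windows) and the TEAD motif 84 bases before it (12.1%). The hypoxia core was the single match in Aspn (16.6% of windows), and Lum held the nuclear factor Y motif on the opposite strand (34% of windows). Of the other motifs, AP-1 was in 6.34% and SOX in 16.3% of all windows, and neither was in these 4. The motif shared by genes that rose (Lum, Epyc) was also present in a gene that fell (Ogn). These are matches of letters in a short window and do not show a binding site.

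Library totals ran from 18592574 counts (organoid 2) to 26472447 (2D culture 1), and levels are given as CPM (a count divided by the scaled library total, per 1e6 counts), where TMM scaling assumes that most genes do not change. Of 9 tested chondrocyte markers 8 were higher in organoids, and the 2D cells, although labelled as chondrocytes, had Col2a1 at 2.91 to 4.89 CPM beside Acan at 1413 to 1513 CPM. Of 10 osteoblast and osteocyte markers 9 were higher (summed 267 to 275 CPM in 2D culture, 12843 to 20833 in organoids). Of 9 tested fibroblast and synovial markers 4 were lower (list sums of 7995 to 9633 against 2719 to 6846 CPM). Most of these sums was Col3a1, at 5670 to 7182 CPM in 2D culture and 2460 to 6369 in organoids, which did not pass (edgeR adjusted p = 0.252). Lower too were 4 of 6 tested smooth muscle and pericyte markers (502 to 527 against 402 to 1286 CPM, 1 marker being higher), while endothelial markers summed to at most 3.59 CPM in any library. Macrophage and blood markers summed to 7.49 to 10.2 CPM in 2D culture and 25.8 to 64.3 in organoids. Cd14 made up most of the 2D sums, at 8.09, 6.85 and 9.47 CPM, and was at 18.6, 22.0 and 10.4 CPM in organoid 1, 2 and 3. Neither Cd14 (edgeR adjusted p = 0.0863) nor Cd68 passed. Csf1r was at 32.5, 16.7 and 0.14 CPM in organoid 1, 2 and 3 against a 2D mean of 0.14. Lyz2 rose from a mean of 0.43 to 6.77 CPM, Adgre1 had 0 counts in all 6 libraries and Ptprc had 0 in 2D culture. The part of these cells in the results was not tested. The other marker lists had 2 of 5 tendon markers lower, a list that also holds Fmod and Kera, and 1 of 3 osteoclast, 1 of 3 macrophage and blood, 1 of 2 fat and 1 of 3 neural markers higher. In bulk libraries a change in the cells present and a change in RNA per cell cannot be told apart.

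Of the family, 6 genes differed between the groups. In organoids Dcn, Lum, Bgn and Epyc rose, Ogn and Aspn fell, and Fmod, Prelp and Omd did not pass. Kera was too low to test. A gene was called where the Benjamini-Hochberg adjusted p of the edgeR fit over 13052 genes was below 0.05, and 14.9% of them were called higher and 12.6% lower (27.5% in either direction). Epyc passed the low-count filter only through its organoid counts, so that among tested genes it had to be higher there. The 9 tested members had a median log2 fold change (organoid over 2D culture) of 0.71, against -0.03 for all genes tested. It was 0.59 over the 8 other than Epyc. At an unadjusted p under 0.05 there were again 6 members, against 40.6% of all genes tested. The 2D cultures were more alike than the organoids, with a median SD of log2 CPM of 0.14 against 0.69 over all genes tested.

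**Figure D1:**
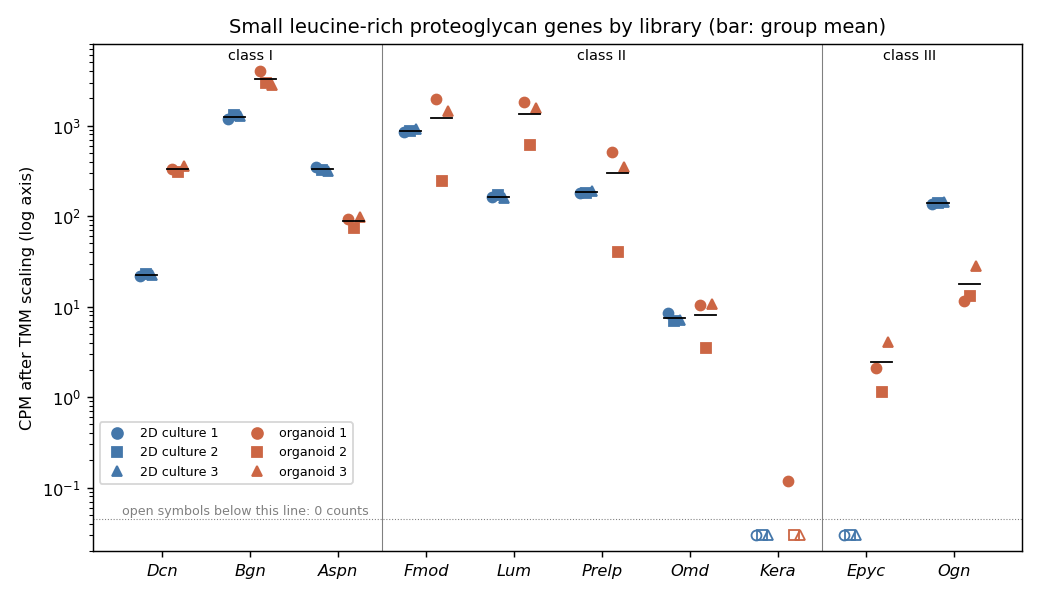
Level of each of the 10 genes in each library, in CPM after TMM scaling on a log axis, ordered by class. Points are libraries, bars are group means (not drawn for Kera) and open symbols are libraries with 0 counts. The 3 organoids lie above the 3 2D cultures for Dcn, Bgn, Lum and Epyc and below them for Aspn and Ogn. Counts were not divided by transcript length, so heights should not be compared between genes.

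Decorin changed most evenly. Dcn (gene ID 29139), the class I proteoglycan that coats fibrils of collagen I and binds TGF-beta, stood at 22.0, 22.9 and 22.6 CPM in 2D culture 1, 2 and 3 and at 333, 306 and 358 CPM in organoid 1, 2 and 3. All organoids were above all 2D cultures, and the organoids differed from each other by no more than 1.17-fold, a spread as small or smaller in only 2.57% of tested genes. The mean rose from 22.5 ± 0.47 to 332 ± 26.0 CPM (SD, n = 3), a log2 fold change of 3.88 ± 0.20 (SE, edgeR adjusted p = 0.000168). The call held when any single library was left out.

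Biglycan rose less. Bgn (gene ID 25181), the closest relative of decorin and a protein of cartilage and bone matrix, had 1184, 1314 and 1275 CPM in 2D culture 1, 2 and 3 and 4036, 2984 and 2819 CPM in organoid 1, 2 and 3. The groups did not overlap and organoid 1 was the highest. The mean went from 1258 ± 67.0 to 3280 ± 660 CPM (SD, n = 3), a log2 fold change of 1.38 ± 0.25 (edgeR adjusted p = 0.00933). The call was lost without 2D culture 1 (adjusted p = 0.0749), 2 (0.0658) or 3 (0.0733), when the number of genes called fell to 1114, 1211 and 1109 over all genes. Scaled by total library size, its log2 fold change was 0.74 and still passed.

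Asporin moved against the other class I genes. Aspn (gene ID 306805), which binds collagen and TGF-beta, was at 349, 326 and 315 CPM in 2D culture 1, 2 and 3 and at 92.3, 73.8 and 97.0 CPM in organoid 1, 2 and 3. Every organoid lay below every 2D culture, with little spread in either group. The mean fell from 330 ± 17.4 to 87.7 ± 12.3 CPM (SD, n = 3), a log2 fold change of -1.91 ± 0.20 (edgeR adjusted p = 0.00148), and the call held without any single library.

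Lumican was the class II gene that rose. Lum (gene ID 81682), which limits the sideways growth of collagen fibrils, had 162, 170 and 158 CPM in 2D culture 1, 2 and 3 and 1842, 607 and 1552 CPM in organoid 1, 2 and 3. Organoid 2 was well below the other organoids and still above all 2D cultures. The mean rose from 163 ± 6.21 to 1334 ± 646 CPM (SD, n = 3), a log2 fold change of 3.03 ± 0.44 (edgeR adjusted p = 0.00463), and it passed without any single library.

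Fibromodulin and PRELP, neighbours in the genome, were split by a single organoid. Fmod (gene ID 64507), which guides collagen cross-linking in tendon and cartilage, stood at 857, 869 and 915 CPM in 2D culture 1, 2 and 3 and at 1960, 246 and 1442 CPM in organoid 1, 2 and 3. Prelp (gene ID 84400), which links collagen to heparan sulfate, had 179, 182 and 188 CPM in the 2D cultures against 514, 40.6 and 347 CPM in organoid 1, 2 and 3. For both genes organoids 1 and 3 lay above every 2D culture and organoid 2 below every one. Neither passed over the 6 libraries: the log2 fold change was 0.47 ± 0.65 for Fmod (edgeR adjusted p = 0.634) and 0.71 ± 0.76 for Prelp (adjusted p = 0.522). Without organoid 2 both passed, with 0.9985 for Fmod (adjusted p = 0.00871) and 1.28 for Prelp (adjusted p = 0.00607), and 39.6% of the genes then tested were called. The highest organoid exceeded the lowest 7.96-fold for Fmod and 12.7-fold for Prelp, a spread reached by 20.6% and 17.5% of tested genes. Without organoid 1, Fmod stood at -0.02, and with total library size at -0.24 and Prelp at -0.0057, none of them called.

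Osteoadherin did not pass and keratocan was too low to test. Omd (gene ID 83717), a bone matrix member also called osteomodulin, was low, at 8.58, 6.91 and 7.12 CPM in 2D culture 1, 2 and 3 and 10.3, 3.49 and 10.7 CPM in organoid 1, 2 and 3. The groups overlapped, with organoid 2 below and the other organoids above every 2D culture, and the log2 fold change was 0.12 ± 0.52 (edgeR adjusted p = 0.892). Its sign turned negative when organoid 1 or organoid 3 was left out, and under total library size scaling, with no call in any of these. Among the 10 osteoblast and osteocyte markers, Omd was the member that did not pass. Kera (gene ID 314771), a proteoglycan of the cornea and tendon, had 2 counts in organoid 1 and 0 in the other 5 libraries, where a count of 0 allows 0.0917 to 0.18 CPM, so no difference was detectable at this depth. Such limits cover counting error only.

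Of the class III genes, Ogn fell and Epyc was detected only in organoids. Ogn (gene ID 291015), a small proteoglycan of bone and connective tissue, was at 137, 141 and 144 CPM in 2D culture 1, 2 and 3 and 11.5, 13.2 and 28.0 CPM in organoid 1, 2 and 3. All organoids were below all 2D cultures, organoid 3 being the highest of them. The mean fell from 141 ± 3.74 to 17.6 ± 9.06 CPM (SD, n = 3), a log2 fold change of -2.997 ± 0.38 (edgeR adjusted p = 0.00298), and the call held without any single library. Epyc (gene ID 314772), a cartilage member, had 0 counts in each 2D culture and 36, 19 and 87 counts in organoid 1, 2 and 3, or 2.12, 1.14 and 4.12 CPM. Its pooled organoid level was 84.4-fold that of 3 counts over the 2D group, a limit that allows for counting error in 2D culture only. The edgeR adjusted p was 0.0124, but Epyc passed the low-count filter only through its organoid counts and so had to be higher there. Its call was lost without 2D culture 1 (adjusted p = 0.0568), 2 (0.0551) or 3 (0.0579).

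**Figure D2:**
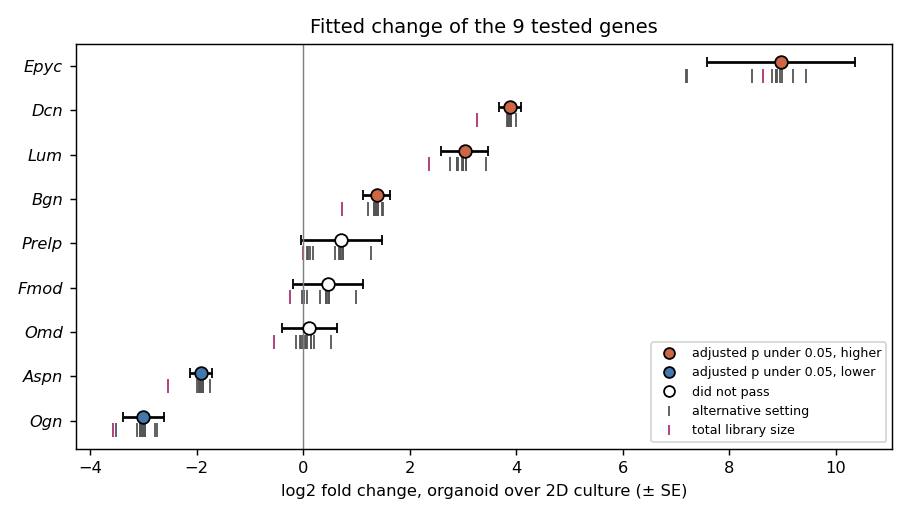
Log2 fold change of organoid over 2D culture (± SE) for the 9 tested genes, with filled circles for those past the threshold, and ticks below for each alternative setting. Dcn, Lum, Bgn and Epyc lie to the right of 0 and Aspn and Ogn to the left under every setting shown, while the ticks of Fmod, Prelp and Omd fall on both sides. The fitted value of Epyc depends on the small count added to its 0 counts.

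Of the 9 tested genes, 4 had all organoids above all 2D cultures, Epyc among them (23.4% of all genes tested), 2 had all below (30.2%) and 3 overlapped. Over all genes tested 53.5% had groups without overlap. On chromosome 7, Dcn and Lum rose; Epyc was tested only through its organoid counts and Kera was not tested. In the chromosome 17 cluster, Ogn and Aspn fell while Omd, which lies between them, did not pass. Ecm2, a related gene listed with the other family members, follows Aspn there and stood at 1.53 ± 0.24 and 0.89 ± 1.24 CPM (SD, n = 3) in 2D culture and organoids (log2 fold change -0.79 ± 1.42, edgeR adjusted p = 0.716).

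Ratios of counts within a library do not depend on how libraries are scaled. The 7 pairs compared were chosen after the values were seen. Prelp over Fmod was 0.206 to 0.210 in 2D culture and 0.262, 0.165 and 0.241 in organoid 1, 2 and 3. The SD of the log2 ratio was 0.36 among organoids and 0.015 among 2D cultures, and the groups overlapped. Dcn over Bgn lay between 0.0174 and 0.0186 in 2D culture and between 0.0825 and 0.127 in organoids, a 5.72-fold difference of the geometric means. Lum over Fmod lay between 0.172 and 0.196 in 2D culture and between 0.940 and 2.47 in organoids, a 7.32-fold difference. Omd over Ogn, neighbours on chromosome 17, lay between 0.0489 and 0.0628 in 2D culture and between 0.264 and 0.893 in organoids. Ogn over Aspn was the pair with lower values in organoids, between 0.125 and 0.289 against 0.392 to 0.457. In these 4 pairs, and for Omd over Aspn and Dcn over Lum, the groups did not overlap. Each of these 6 had a two-sided exact permutation p = 0.1, the smallest that 3 against 3 libraries allow (Benjamini-Hochberg adjusted 0.117 over 7 pairs). Prelp over Fmod had an exact p = 0.8. Among single genes tested, 53.5% had groups without overlap, and no such share was computed for ratios.

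**Figure D3:**
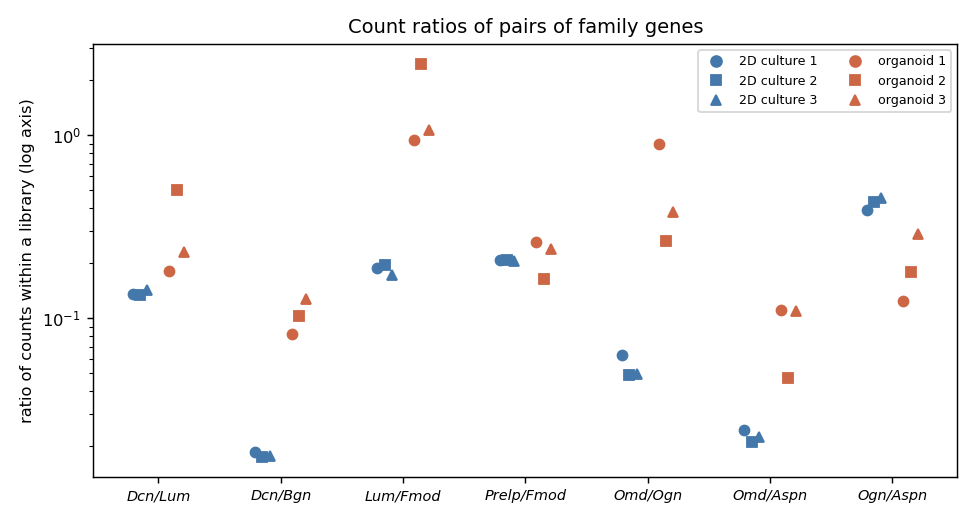
Ratio of the counts of pairs of family genes within each library, on a log axis, with a point per library. The 2D cultures and organoids are apart for every pair except Prelp/Fmod, whose 2D values of 0.206 to 0.210 lie between the organoid values of 0.165 and 0.262. The pairs were chosen after the values were seen, and no share over other gene pairs was computed.

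The make-up of the family's counts shifted with these changes. The 10 genes took 0.357%, 0.384% and 0.372% of all counts in the 2D libraries, and 0.582%, 0.383% and 0.584% of those in organoid 1, 2 and 3 (the widest exact Clopper-Pearson 95% interval, in organoid 3, ran from 0.581% to 0.587%), so organoid 2 lay within the 2D range. Col1a1, Col1a2 and Col2a1 together took 4.24% to 5.15% of counts in 2D culture and 26.7% to 36.8% in organoids, and without those collagens in the total the family took 0.377% to 0.401% and 0.522% to 0.921%. Within the family, Lum held 5.22% to 5.61% of the counts in 2D culture and 14.2% to 23.3% in organoids, and Dcn held 0.748% to 0.759% and 3.78% to 7.16%. Aspn held 10.4% to 12.0% in 2D culture and 1.05% to 1.73% in organoids, and Ogn held 4.66% to 4.76% and 0.131% to 0.421%. Bgn held 69.8% of the family's counts in organoid 2, against 40.8% to 45.9% in the other 5 libraries. Longer transcripts give more counts, so these shares are read between libraries and not between genes.

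**Figure D4:**
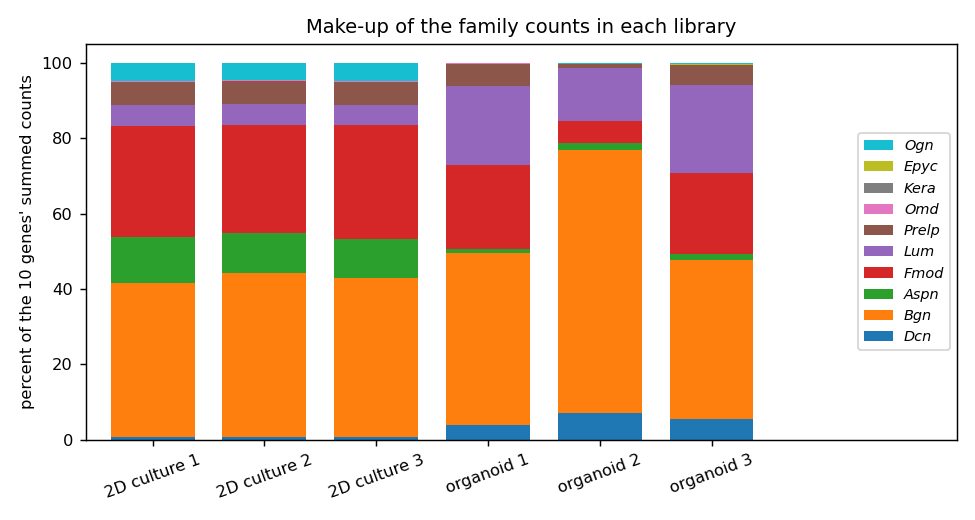
Share of each gene, in percent, of the summed counts of the 10 genes in each library. The 3 2D cultures are nearly the same, organoids hold more Lum and Dcn and less Aspn and Ogn, and organoid 2 differs from the other organoids by its 69.8% of Bgn and 5.76% of Fmod.

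The members differed widely in how much they varied among organoids. Organoid 2 was the lowest organoid for 7 of the 9 tested genes, against 35.8% of all genes tested that were strictly lowest there, and the highest for 0, against 37.7% of all genes. Dcn, Bgn and Aspn, the class I genes, varied by at most 1.43-fold among organoids, whereas Lum, Omd and Epyc varied by 3.03- to 3.61-fold. Of the 9 tested chondrocyte markers 8, all but Col11a2, had the same order over the organoids as Fmod, Prelp and Lum: Col2a1 was at 78321, 6414 and 21945 CPM in organoid 1, 2 and 3, and Comp at 1581, 101 and 587 CPM. Others spread less, such as Sox9 at 1420, 716 and 942 CPM. The share of all genes tested with that order was not computed. Of the 10 osteoblast and osteocyte markers 1 (Alpl) had that order, 7 were highest in organoid 2, and Omd and Ibsp were highest in organoid 3 and organoid 1. Organoid 2 also had the smallest library. The part of these differences in the values of Fmod, Prelp and Lum was not tested.

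**Figure D5:**
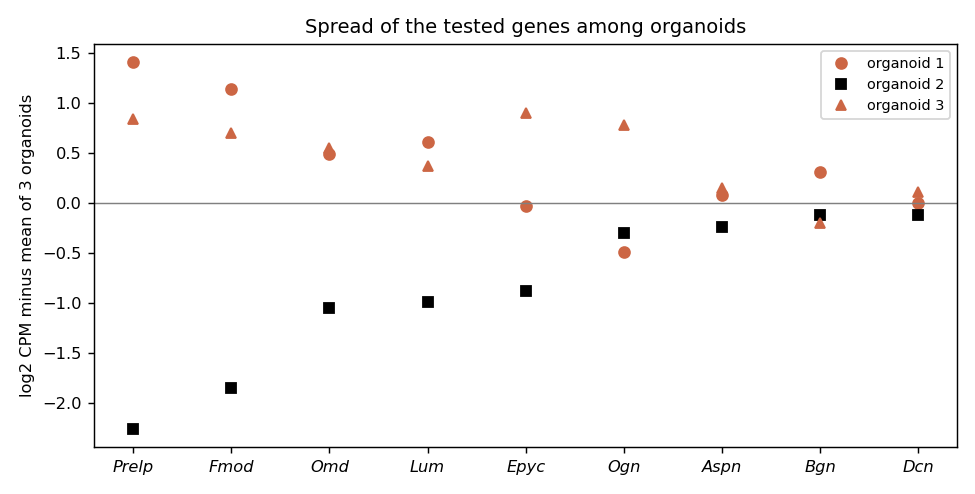
Deviation of each organoid from the mean of the 3 organoids in log2 CPM for the 9 tested genes, ordered by organoid 2. Organoid 2 lies 2.25 below the mean for Prelp and 1.85 below it for Fmod, and within 0.24 of it for Aspn, Bgn and Dcn.

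Among other members and near relatives of the family, 6 of 8 listed genes were tested. Of these 3 rose, 0 fell and 3 did not pass, against 14.9% higher and 12.6% lower over all genes tested. Their median log2 fold change was 0.36, against -0.03 for all genes tested, but it counts Chadl, which had to be higher by the filter. Without Chadl the values were 1.77 (Podnl1), 1.08 (Tsku), -0.37 (Optc), -0.79 (Ecm2) and -4.36 (Podn), with the negative Optc in the middle. Tsku (tsukushi), a secreted class IV member, rose from 71.2 ± 3.62 to 150.2 ± 20.6 CPM (SD, n = 3), a log2 fold change of 1.08 ± 0.19. Podnl1 (podocan-like 1), of class V, rose by 1.77 ± 0.27 on the log2 scale (edgeR adjusted p = 0.00574), and Chadl, a relative of chondroadherin, by 4.55 ± 1.37 (adjusted p = 0.0490). The counts of Chadl were 6, 8 and 0 for the 2D cultures against 115, 24 and 45 for organoid 1, 2 and 3; it passed the low-count filter only through its organoid counts and so had to be higher there. Podn (podocan) stood at 15.7 ± 2.28 CPM in 2D culture and 2.30, 0 and 0 CPM in organoid 1, 2 and 3 and did not pass (adjusted p = 0.0923). It had fractional counts, a sign of reads shared with other genes, in 3 libraries. Chad (chondroadherin), a cartilage protein that binds integrins, had 2 counts over the 2D cultures and 90, 3 and 58 in organoid 1, 2 and 3, and was removed by the low-count filter; the pooled ratio was 135, with a 95% exact interval from 36.6 to 1122 for counting error alone. Optc (opticin), beside Prelp in the genome, was at 0.89 ± 0.29 and 0.69 ± 0.60 CPM (edgeR adjusted p = 0.862), and Nyx (nyctalopin) was not tested. Without 2D culture 1, 2 or 3, or with total library size, 1 gene (Podnl1) remained higher, and Podn passed as lower when organoid 1 was left out and under total library size. Chadl did not pass without organoid 1, with no low-count filter or with the replicate number as a block either, while Podnl1 and Tsku did. Chad passed as higher with no low-count filter, and also without organoid 2, where the filter kept it through its organoid counts alone.

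The enzymes that build the sugar chains were listed in 2 groups. Of 10 genes for the chain linker and dermatan sulfate 4 rose, 2 fell and 4 did not pass (median log2 fold change 0.42). Over all genes tested, 14.9% were called higher and 12.6% lower. Xylt1, which attaches the starting xylose to the core protein, rose from 5.78 ± 2.01 to 121 ± 39.6 CPM (SD, n = 3), a log2 fold change of 4.39 ± 0.41 (edgeR adjusted p = 0.000996). Dse, the epimerase that turns chondroitin into dermatan sulfate, fell by 1.49 and B3galt6, which adds a galactose of the linker, fell by 1.86 on the log2 scale. B3galt6 had a fractional count in 1 library. Of 9 genes for keratan sulfate and tyrosine sulfation 1 rose, 1 fell and 7 did not pass (median -0.17). The share called was close to the 27.5% of all genes tested. B3gnt7, which extends keratan sulfate, rose by 5.33 ± 0.40, and Tpst2, which sulfates tyrosines such as those of fibromodulin and osteoadherin, fell by 1.32 on the log2 scale. After removal of 2D culture 1 or 3, 2 of the linker and dermatan sulfate genes were higher and 0 lower, and 0 of the keratan and tyrosine sulfation genes were lower. Without 2D culture 2 there were 2 linker and dermatan sulfate genes higher and 1 lower. Without organoid 2, 2 keratan and tyrosine sulfation genes were lower. With total library size 2 linker and dermatan sulfate genes rose and 4 fell, and 3 of the keratan and tyrosine sulfation genes fell.

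Collagens that these proteins bind rose or did not pass. Of 12, 6 rose and 0 fell (median 0.90), against 14.9% higher and 12.6% lower over all genes tested. Among those that rose were Col1a1 (3.21 ± 0.36), Col1a2 (3.31 ± 0.29) and Col2a1 (13.11 ± 1.33). Without 2D culture 1 or 3 the 3 named were the ones called. Col1a1 had a fractional count in 1 library and Col1a2 in 2. Of 10 proteases that process or cleave the family 2 rose, 1 fell and 7 did not pass (median -0.59), a share close to that of all genes. Bmp1, which removes the propeptides of biglycan and osteoglycin as well as of procollagens, rose from 62.6 ± 5.68 to 274 ± 119 CPM (SD, n = 3), by 2.13 ± 0.33 on the log2 scale, and Mmp13, a collagenase that can also cut family members, rose by 9.16 ± 0.45. Tll1, a relative of Bmp1, fell by 3.47 on the log2 scale. The collagens and proteases called lower numbered 2 and 2 with total library size, 1 and 2 without organoid 1, 1 and 1 without organoid 2, and 0 and 3 without organoid 3. With DESeq2 and with both limma-voom fits they numbered 1 and 2.

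Of 16 tested ligands and receptors that family members are known to bind, 3 rose and 4 fell (median 0.24). Over all genes tested, 14.9% were called higher and 12.6% lower. Tgfb3, a growth factor that decorin and relatives bind, fell from 472 ± 13.2 to 26.7 ± 17.0 CPM (SD, n = 3), a log2 fold change of -4.15 ± 0.48 (edgeR adjusted p = 0.00222), while Bmp2 rose by 3.49 ± 0.30. The other TGF-beta genes went the opposite way to Tgfb3. Tgfb1 rose by 2.21 ± 0.66 (edgeR adjusted p = 0.0457) and Tgfb2 by 1.41 ± 0.42 (adjusted p = 0.0456). Met, a receptor bound by decorin, had 1001 counts over the 2D cultures and 1 over the organoids, a pooled level 561-fold lower, with a 95% exact interval from 100.5 to 22189 for counting error alone. Met passed the low-count filter only through its 2D counts and so had to be lower in organoids. Tlr2, a receptor for biglycan, was too low to test, with 3, 68 and 17 counts in 2D culture 1, 2 and 3 and 0 in each organoid; most of its counts came from 2D culture 2. Without 2D culture 1, 2 or 3, or with total library size, Bmp2 was the single gene that rose. The genes that fell numbered 2, 3 and 2 without 2D culture 1, 2 and 3, with Met and Tgfb3 among them. Without organoid 1 or 2, 5 rose, and 7 rose with DESeq2.

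The genes with the most similar profiles were found by the root mean square difference of log2 CPM over the 6 libraries, each gene centred on its mean, among 8811 tested genes of at least 10 CPM. Nearest to Dcn were Cadm1 (0.113) and Gng11 (0.136), against a median of 2.05 over the candidates. Nearest to Lum were RGD1563601 (0.0994) and S100b (0.116), the latter expressed in cartilage and glia. For Ogn they were Kif2c (0.215) and Cand2 (0.281), for Aspn Fen1 (0.0743) and Bysl (0.0764), for Prelp Slc7a3 (0.160) and Il13ra1 (0.218), and for Fmod Bbs1 (0.0856) and Lpar4 (0.154). With 6 libraries in 2 groups, many genes share such a profile, and the measure says nothing of shared function.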

How the data were processed

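Expression was measured by mRNA sequencing in 6 libraries, grouped by their titles. Per the labels' protocols, Trizol RNA went into mRNA libraries for DNBSEQ. Tools listed in the submitters' processing notes, with no version or role, are DESeq2, RSEM, Bowtie2, HISAT and HISAT2. The sources used here do not give genome build or annotation. The authors deposited expected counts per gene, which can be fractional. None of the 10 members had a fractional value. Values were rounded before testing. In R 4.3.3, genes were filtered with edgeR 4.0.16 (filterByExpr, minimum count 10), scaled by TMM and compared with its quasi-likelihood test (robust) at a Benjamini-Hochberg adjusted threshold of 0.05 over all genes. SE is the size of the log2 fold change divided by the root of the F statistic. Log2 CPM used a prior count of 2. Alternatives were other scalings, DESeq2 1.42.0, limma 3.58.1 (voom), no filter, a replicate block and leaving out each library. Every replicate pair differed beyond sampling noise (chi-square over degrees of freedom at least 9.03). Members and lists were chosen with earlier results of these data known. Outside the members, the text names from each list up to 3 called genes (1 CPM or more) that changed most and the largest opposite change, all other family genes, and the 2 nearest profiles per member, in part. Tlr2, Tgfb1, Tgfb2, Col3a1, Cenpp and the motifs were chosen after values were seen. So were the named macrophage and blood genes, and the marker genes given in comparison with Fmod, Prelp and Lum.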

Additional observations from a re-analysis of the deposited data

How the results depend on the processing

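The calls of Dcn, Lum, Ogn and Aspn held under all 13 alternatives, with log2 fold changes of 3.27 to 3.99, 2.36 to 3.43, -3.57 to -2.74 and -2.53 to -1.75. Bgn (0.74 to 1.49) and Epyc held under 10 of 13, failing without any of the 2D cultures. Leaving out 1 library gave 1109 to 5321 genes called, 2 to 6 members higher and 2 members lower; the cause was not tested. Total library size moved the median log2 fold change by -0.61 and the share of calls that were higher from 54.1% to 23.1%, and turned Fmod (-0.24), Omd (-0.54) and Prelp (-0.0057) negative. Leaving out 1 organoid gave -0.022 to 0.9985 for Fmod and -0.14 to 0.53 for Omd. Leaving the 3 collagens out of the totals moved the family's mean share from 0.371% to 0.390% in 2D culture and from 0.516% to 0.758% in organoids. Correlations of same-numbered deviations were 0.061, 0.19 and 0.021. 2D culture 1 and 2 correlated best with their own replicate number and 2D culture 3 did not. Whether the number marks a shared source cannot be decided from 3 libraries per group. With the number as a block, 2730 genes were called, the same 6 members passed and Omd was at -0.034. Ligands and receptors called higher numbered 3, against 7 with DESeq2, 5 with limma-voom weighted by group, and 1 with no filter or with the block; Podn passed as lower with DESeq2 and both limma-voom fits. Depth limits what is known of Kera (2 counts in all) and of Epyc in 2D culture (0 counts).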
